A study of Mus musculus with 2 samples.

Results

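The genes described here are 6 that have been used to mark the sheath and lining layers of tendon and joint: Tppp3, Prg4, Cd55, Creb5, Tspan15 and Angptl7. They were found by symbol among the 32285 features of a droplet single-cell RNA dataset, and they were picked with a lower level of Tppp3 in the mutant library already known. Every value below is therefore a description of 2 libraries and no test is given. Cells came from the injured tendon area of mice of 12 weeks of age, taken 14 d after the operation. In the WT library the TrkA receptor was wild type. In the F592A library TrkA carried the F592A point mutation, which makes this neurotrophin receptor kinase sensitive to bulky inhibitors, and the label of that sample names INMPP1. Each library was a pool of 3 mice, so the spread between mice was not measured. The labels do not say whether WT mice were given the inhibitor too, and effects of the mutation, of blocked TrkA and of the inhibitor cannot be told apart. The labels give no strain background, so a difference in background or between the library preparations cannot be told apart from the genotype either.

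A tendon slides inside a sheath whose inner surface resembles the synovial lining of a joint. Fibroblasts of these surfaces make hyaluronan and the lubricating glycoprotein lubricin, and TPPP3-positive cells of the sheath have been described as progenitors that take part in tendon repair. Tppp3 encodes a tubulin-binding protein and Prg4 encodes lubricin. Cd55 encodes a membrane protein that speeds the decay of complement convertases and marks lining fibroblasts of the synovium. Creb5 encodes a transcription factor of the CREB and ATF group that is needed for Prg4 expression in articular cartilage. Tspan15 encodes a tetraspanin that steers the protease ADAM10, and Angptl7 encodes a secreted angiopoietin-like protein.

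In GENCODE M21 on GRCm38, Tppp3 lies on the minus strand at chr8:105467493-105471526, Prg4 on the minus strand at chr1:150449412-150466165 and Cd55 on the minus strand at chr1:130439027-130462744. Creb5 lies on the plus strand at chr6:53287270-53700376, Tspan15 on the minus strand at chr10:62185396-62231251 and Angptl7 on the minus strand at chr4:148495183-148500460. Angptl7 lies inside the span of Mtor (chr4:148448611-148557683), which is on the opposite strand. The near copy Cd55b lies beside Cd55 at chr1:130388537-130423009. Cd55b had 1 UMI in all stromal cells of both libraries together, and how reads shared by the 2 copies were counted was not tested.

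The promoters are shown because Cd55, Creb5 and Tspan15 varied together between stromal cell clusters, while Angptl7 did not vary with them. These values are given further on, and those of Tspan15 rest on few clusters. The RefSeq promoter table (GRCm38.p6) held 5 promoters for 4 of the 6 genes, and the entries for Tppp3 and Prg4 are missing from it. The 250 bases before each transcription start are printed 5′ to 3′ on the strand of the gene. A script searched them for TGACGTCA, the full cyclic AMP response element that CREB proteins bind, and for TGANTCA, the AP-1 element. Both motifs read the same on both strands, a match to either is no match to the other, and matches are in capitals.
Creb5 first promoter, chr6:53287053-53287302, plus strand: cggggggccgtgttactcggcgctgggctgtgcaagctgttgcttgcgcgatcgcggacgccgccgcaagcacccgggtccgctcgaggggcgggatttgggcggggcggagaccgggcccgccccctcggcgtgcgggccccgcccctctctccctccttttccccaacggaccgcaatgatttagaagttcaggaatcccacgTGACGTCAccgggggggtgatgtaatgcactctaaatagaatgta
Creb5 second promoter, chr6:53573124-53573373, plus strand: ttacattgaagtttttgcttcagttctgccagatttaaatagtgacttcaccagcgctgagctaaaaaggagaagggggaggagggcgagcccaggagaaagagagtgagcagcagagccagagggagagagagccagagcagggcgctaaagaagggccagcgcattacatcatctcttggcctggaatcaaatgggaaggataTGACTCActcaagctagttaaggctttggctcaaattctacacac
Tspan15 promoter, chr10:62231219-62231468, minus strand: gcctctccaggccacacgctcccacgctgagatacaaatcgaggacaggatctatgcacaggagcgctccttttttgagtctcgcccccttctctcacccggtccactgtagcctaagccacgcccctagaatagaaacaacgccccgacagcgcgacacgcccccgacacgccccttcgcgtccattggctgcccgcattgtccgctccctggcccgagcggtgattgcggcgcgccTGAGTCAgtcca
Cd55 promoter, chr1:130462745-130462994, minus strand: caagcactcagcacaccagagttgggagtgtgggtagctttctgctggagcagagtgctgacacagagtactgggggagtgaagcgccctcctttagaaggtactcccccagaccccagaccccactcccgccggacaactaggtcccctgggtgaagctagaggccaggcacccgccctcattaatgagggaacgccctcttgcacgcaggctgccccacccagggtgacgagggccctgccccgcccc
Angptl7 promoter, chr4:148500463-148500712, minus strand: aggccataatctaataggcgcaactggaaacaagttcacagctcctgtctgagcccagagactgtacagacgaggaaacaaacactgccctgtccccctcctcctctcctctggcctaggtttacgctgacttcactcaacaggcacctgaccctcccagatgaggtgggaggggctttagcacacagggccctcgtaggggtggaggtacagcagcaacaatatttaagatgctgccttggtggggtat
The first Creb5 promoter held TGACGTCA from 45 to 38 bases before the start. This motif was present in 1.55% of all 32851 promoter stretches of this length. The second Creb5 promoter held TGACTCA from 45 to 39 bases before its start, and the Tspan15 promoter held TGAGTCA from 12 to 6 bases before its start. These starts are those of RefSeq. The Tspan15 start and the first Creb5 start lie inside the GENCODE spans given above, and so does the Tspan15 match. TGANTCA was present in 6.75% of all promoter stretches. The Cd55 and Angptl7 stretches held neither string of letters. Over 227 aligned bases the Cd55 and Cd55b stretches were identical at 169, or 74.4%. A match is a run of letters and does not show that a protein binds there.

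The WT library held 14868 barcodes with 222874195 UMIs (unique molecular identifiers, which mark single captured RNA molecules), and 10677 barcodes with 181472230 UMIs made up the F592A library. After filters on genes, UMIs and mitochondrial share and removal of called doublets, 11257 WT cells (median 15870 UMIs) and 8444 F592A cells (median 17886.5 UMIs) were left. In all, 96 barcodes were shared by cells of the 2 libraries, 15 of them in the stromal cells of each. Clusters were made without the 6 genes. The stromal class, which expresses collagen I and decorin strongly, was made of 8 clusters with 5297 WT and 3965 F592A cells, or 47.1% and 47.0% of all cells. Levels are given as CPM, the UMIs of a gene per 1000000 UMIs of all genes in the same class and library. All intervals are at 95% and reflect counting error, not the spread between mice.

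Tppp3 was lower in F592A in every named class of cells, with neutrophils within counting error. In stromal cells its level was 241 CPM in WT (30002 UMIs) and 116 CPM in F592A (11655 UMIs), a log2 ratio of -1.05 (interval -1.09 to -1.02). It was also lower in cells where it is not a sheath marker. In mural cells, the pericytes and smooth muscle cells around vessels, it was 698 CPM in WT and 287 CPM in F592A (log2 ratio -1.28, interval -1.35 to -1.21). In macrophages it was 296 and 135 CPM, and the log2 ratio was -1.14 (interval -1.20 to -1.08).

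The same direction held in the smaller classes. In lymphatic endothelial cells Tppp3 had 344 CPM in WT against 135 CPM in F592A (log2 ratio -1.35), and in blood endothelial cells at 73.7 and 42.1 CPM (log2 ratio -0.81). In the fibrochondrocyte-like cells, a cluster with cartilage genes such as Hapln1 and Col2a1 among its leading genes, it was at 60.2 and 27.0 CPM (log2 ratio -1.15). T or NK cells held 79 and 23 UMIs of Tppp3 at 133 and 25.3 CPM, but 26 and 22 of the 79 were in 2 cells, and at the finer resolution of 1.2 the WT level was 46.3 CPM and the F592A level 25.5 CPM. Neutrophils held 26 and 12 UMIs, and there the interval of the log2 ratio, -2.11 to 0.05, included 0. The WT order began with mural, macrophage and stromal cells, each apart from the next by more than counting error. No place is given to T or NK cells because of the 2 cells named above. Lymphatic cells are given none either, because 77 and 50 of their 513 WT UMIs were in 2 cells. In F592A mural cells were again the highest, while lymphatic cells and macrophages, at 135 CPM each, did not differ beyond counting error.

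Few genes were lower in so many classes. Of 7459 genes measured in each of 5 large classes (stromal, fibrochondrocyte-like, macrophage, endothelial and mural), 3 were at least 1.5-fold lower in F592A in all 5, or 0.0402%. Besides Tppp3 these were Mgst3, a microsomal glutathione transferase, with a log2 ratio of -0.78 in stromal cells, and Ccl9, a chemokine, with -0.81. The cell classes and the names were chosen after the values were seen. The 6 genes were picked for lower Tppp3 in F592A, so nothing is read from its place among the 3. In the other direction 25 genes, or 0.335%, were at least 1.5-fold higher in all 5 classes. The highest log2 ratios of these in stromal cells, picked after the values were seen, were 2.53 for Gm15564, 1.35 for Gm42418, 1.33 for Hist1h4h, 1.13 for Lars2, 1.11 for Rps27 and 1.10 for AY036118. Many of the 25 were ribosomal protein genes, among them Rps28 at 1.07, Rps21 at 0.97 and Rpl38 at 0.95 in stromal cells. Others encode mitochondrial proteins, such as mt-Nd3 at 0.99 and Atp5k at 0.80. What moved these genes in all 5 classes, and its part in the Tppp3 values, was not tested. Only 3 of the 6 sheath and lining genes (Tppp3, Prg4 and Creb5) were measured in all 5 classes.

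**Figure D1:**
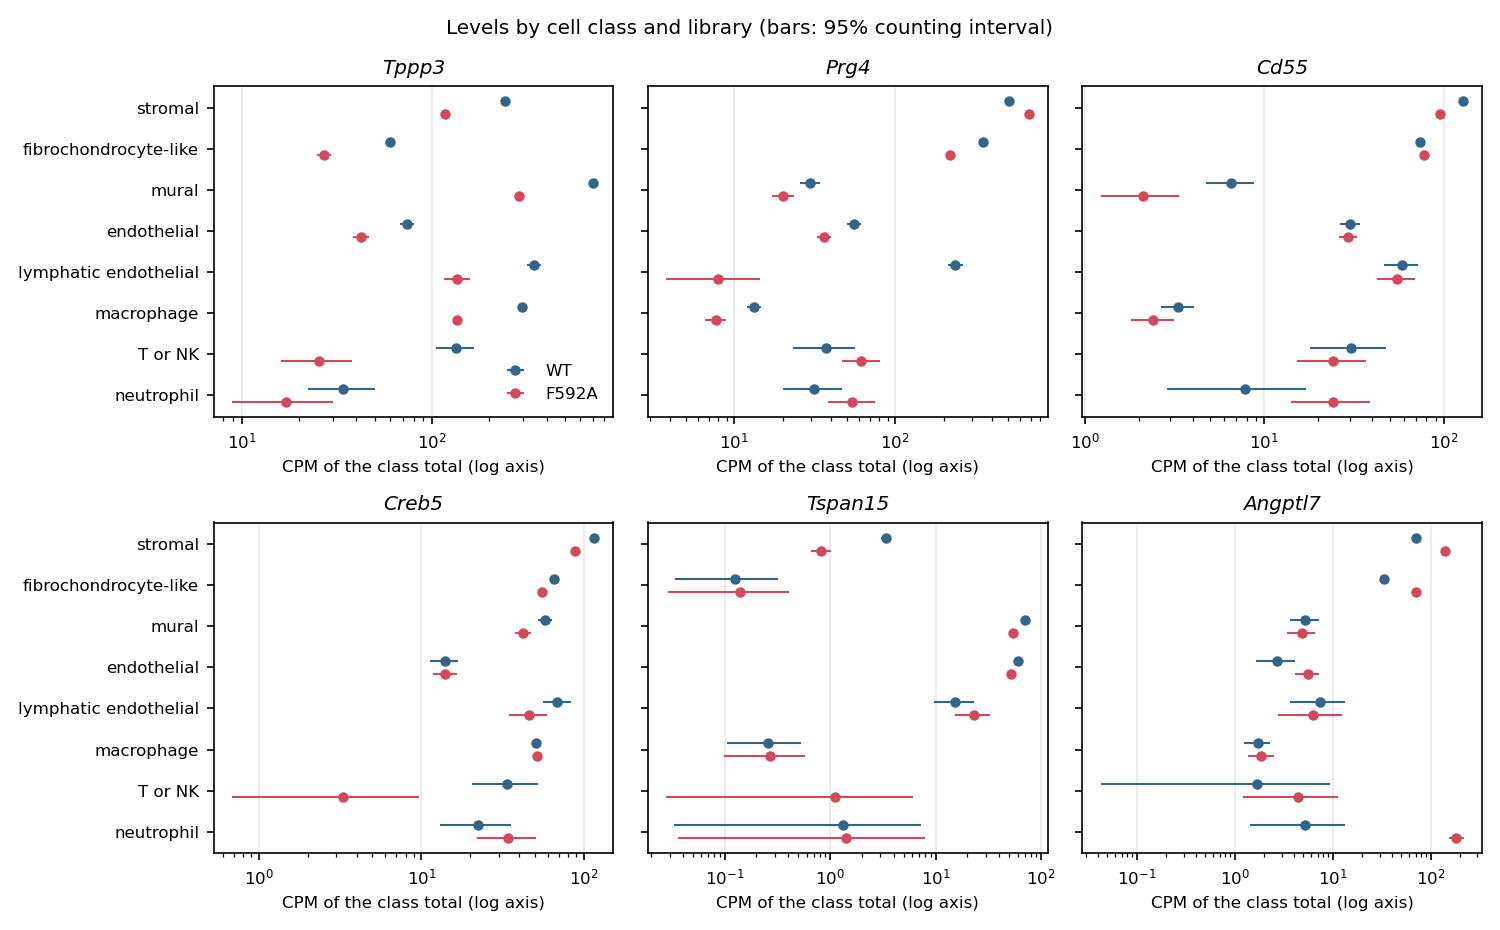
Level of each gene in 8 cell classes, as CPM of the class total on a log axis, with WT in blue and F592A in red. Points are the 2 libraries, bars are 95% counting intervals, and a class with 0 UMIs has no point. The red Tppp3 point is left of the blue one in every class, from 698 to 287 CPM in mural cells, while the Prg4 and Angptl7 points of stromal cells lie the other way.

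The neighbours of Tppp3 on chromosome 8 did not share its difference. Of 33 annotated genes within 250 kb on either side, 24 were measured in stromal cells. None of the 24 was at least 1.5-fold lower in F592A, 1 was at least 1.5-fold higher, and their median log2 ratio was -0.14. The nearest measured gene, Zdhhc1, which lies under 1 kb from the start of Tppp3, was at 13.6 CPM in WT against 13.1 CPM in F592A. The gene that was higher was Hsd11b2, at 1.11 and 5.01 CPM. These genes were looked up after the Tppp3 values were seen.

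Among all 13594 genes measured in stromal cells (at least 100 UMIs over both libraries), 5.47% were at least 1.5-fold lower in F592A and 3.41% at least 1.5-fold higher, with a median log2 ratio of -0.10. The balance of the directions depended on the scaling: with TMM factors 4.22% were lower and 4.35% higher, and with median-of-ratios factors 4.11% and 4.52%. Of the 6 genes, 2 were at least 1.5-fold lower (Tppp3 and Tspan15), 1 was at least 1.5-fold higher (Angptl7) and 3 lay between. At 2-fold, Tppp3 and Tspan15 were again lower against 1.66% of all genes, and none of the 6 was higher against 0.883%. Since the genes were chosen with this contrast known, nothing is read from these counts. Ordered by log2 ratio from the lowest, Tspan15 was in place 16, Tppp3 in place 193, Cd55 in place 1708, Creb5 in place 2102, Prg4 in place 12784 and Angptl7 in place 13466.

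Fewer F592A stromal cells had Tppp3, and those that did held fewer molecules. At least 1 UMI was found in 61.3% of WT stromal cells (interval 60.0 to 62.6) and in 46.1% of F592A stromal cells (interval 44.5 to 47.6). The median stromal cell held 21654 UMIs in WT and 23850 in F592A. Positive cells held a mean of 9.24 UMIs in WT and 6.38 UMIs in F592A. Cells with 10 or more UMIs made up 17.1% and 9.23%, and the highest cell held 315 UMIs in WT and 75 UMIs in F592A. Neutrophils were used as a background type, and whether they express any of the 6 genes was not tested. Among them 6.87% of WT and 4.07% of F592A cells had a Tppp3 UMI, at median depths of 2493 and 3022 UMIs. After each cell was thinned to 2000 UMIs, 25.5% of WT and 15.3% of F592A stromal cells had a Tppp3 UMI, against 5.61% and 2.56% of neutrophils.

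**Figure D2:**
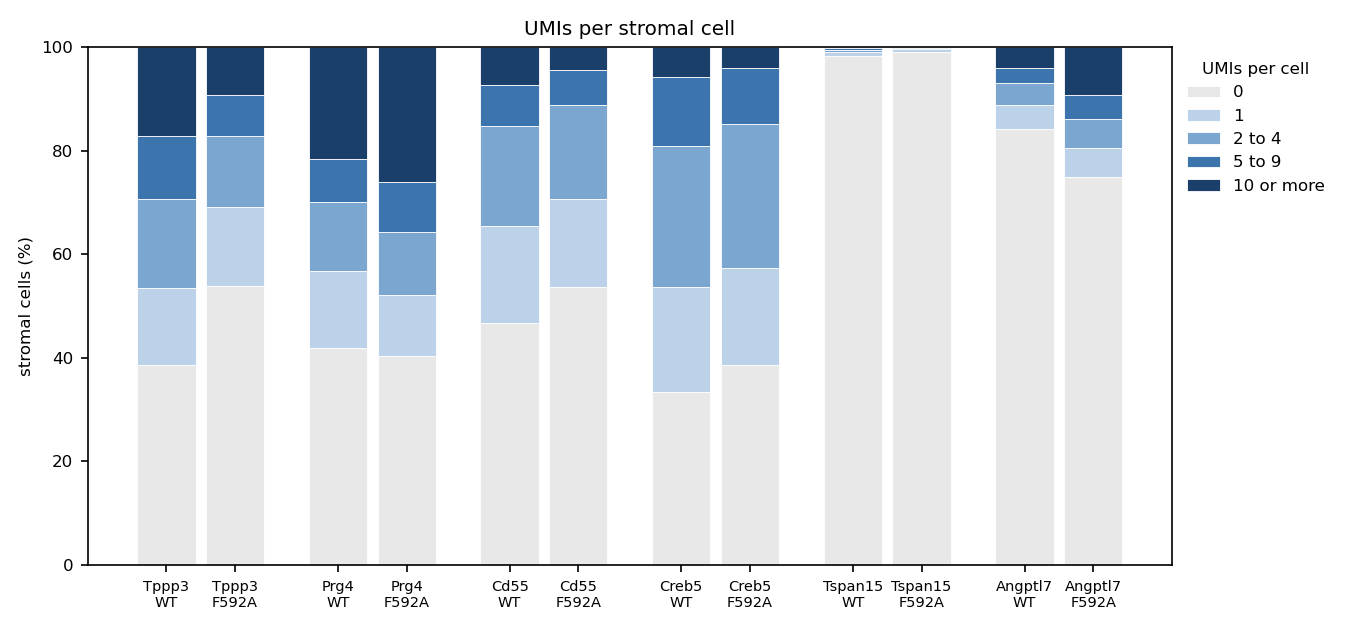
Share of stromal cells (vertical axis, percent) by the number of UMIs they held of each gene, for 5297 WT and 3965 F592A cells. The darkest part, 10 or more UMIs, shrinks for Tppp3 from 17.1% to 9.23% and grows for Angptl7 from 3.96% to 9.33%, while Tspan15 is at 0 in nearly every stromal cell of both libraries.

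The level of Tppp3 was also lower inside each stromal cluster. In the cluster led by Efemp1, Cd55, Scara5 and Olfml2a, where it was highest, it was at 720 CPM in WT against 440 CPM in F592A, a log2 ratio of -0.71 (interval -0.77 to -0.65). In the cluster led by the cell cycle genes Ube2c and Cenpf it was at 333 and 90.8 CPM, a log2 ratio of -1.88 and the lowest of the 8. In the tenocyte-like cluster with Chad, Mstn and Kera it was at 52.5 and 17.7 CPM, a log2 ratio of -1.57. The smallest difference was in the cluster led by Igfbp2 and Wnt16, at 122 and 112 CPM, with an interval of -0.23 to -0.03.

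In the remaining clusters, Tppp3 was at 258 and 190 CPM where Igf2 and Penk led, at 232 and 129 CPM where Gdf10 and C3 led, at 110 and 51.3 CPM where Saa3 and Chl1 led, and at 74.9 and 44.5 CPM where Angptl7 and Fbln7 led. The interval was below 0 in 8 of 8 clusters, and 6 of 8 were at least 1.5-fold lower. At a finer resolution it was below 0 in 11 of 12 stromal clusters. The exception was a cluster led by Hmcn2, Gpc3 and Igf2, at 454 CPM in WT against 452 CPM in F592A.

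The Efemp1 and Cd55 cluster held 767 WT and 282 F592A cells, or 6.81% and 3.34% of all cells. The median log2 difference of its 10 leading genes between the libraries was 0.40, and these sizes are therefore not read as numbers of a cell type. It supplied 43.8% of the stromal Tppp3 UMIs in WT and 28.4% in F592A. With each stromal cluster given its WT share in both libraries, the log2 ratio of Tppp3 was -0.74, and with that cluster left out it was -0.82. With the clusters of resolution 0.8, part of the stromal difference thus moved with their mixture, and the larger part was found inside them. The finer clusters were not weighted in this way, and some were further apart in share. The Hmcn2, Gpc3 and Igf2 cluster made up 0.82% of WT and 3.64% of F592A cells, so this split may depend on the resolution.

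Prg4 went the other way in stromal cells, but not in all of them. Its level was 509 CPM in WT and 678 CPM in F592A, a log2 ratio of 0.41 (interval 0.40 to 0.43), while the share of stromal cells with a UMI was 58.1% and 59.7%. The mean per positive cell was 20.6 UMIs in WT and 28.8 UMIs in F592A. After thinning to 2000 UMIs the share with a UMI was 27.0% and 30.4%, and the share with at least 2 UMIs before thinning was 43.2% and 47.8%. In the Efemp1 and Cd55 cluster Prg4 was at 818 CPM in WT against 1948 CPM in F592A, a log2 ratio of 1.25. In the Saa3 and Chl1 cluster it was at 219 and 598 CPM, with a log2 ratio of 1.45. In the Angptl7 and Fbln7 cluster, where it was highest, it was at 1445 and 2538 CPM, with a log2 ratio of 0.81.

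Prg4 was also higher in the tenocyte-like cluster, at 630 and 727 CPM, and in the cycling cluster, at 707 and 993 CPM. It was lower in 3 clusters, at 248 and 164 CPM where Gdf10 and C3 led, at 220.0 and 143 CPM where Igfbp2 and Wnt16 led, and at 157 and 139 CPM where Igf2 and Penk led. At the finer resolution a cluster led by Slurp1 and Sbsn, which encode secreted proteins, was split off, with 204 WT and 44 F592A cells. There Prg4 reached 2163 CPM in WT and 4119 CPM in F592A, while Tppp3 was at 656 and 381 CPM. In this small cluster the F592A cells thus had more Prg4 and less Tppp3. The median log2 difference of its 10 leading genes between the libraries was 0.69, and whether both libraries hold the same cells there was not tested.

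Outside the stromal class the Prg4 values depended on clustering or on single cells in several classes. In fibrochondrocyte-like cells it was at 350 CPM in WT against 219 CPM in F592A (log2 ratio -0.68), although the share of cells with a UMI was 47.3% and 57.0%. At resolution 1.2 the direction turned in this class, to 139 and 165 CPM (log2 ratio 0.25), so no order is read. In macrophages Prg4 was at 13.3 and 7.70 CPM, below its neutrophil values of 31.5 and 54.3 CPM. Of the 38 UMIs of F592A neutrophils 16 were in 1 cell. By the mean of the CPM of single cells, macrophages had 15.2 and 10.4 and neutrophils 33.0 and 30.5. A Prg4 UMI was found in 11.9% and 9.10% of macrophages, which were deeper than neutrophils. Whether macrophages express Prg4 themselves was not tested. In endothelial cells it was at 55.4 and 36.3 CPM, but 268 of 414 UMIs in WT and 236 of 362 in F592A were in 1 cell each, and the mean of the CPM of single cells was 34.7 and 28.8. In mural cells it was at 29.7 and 20.2 CPM, with 94 of 204 UMIs in WT and 56 of 163 in F592A in 1 cell each, and no order is read in either class. Lymphatic endothelial cells held 353 UMIs in WT and 10 UMIs in F592A, but 180 and 85 of the 353 were in 2 cells. In neutrophils, the background type, 7.63% of WT and 9.88% of F592A cells had a Prg4 UMI.

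**Figure D3:**
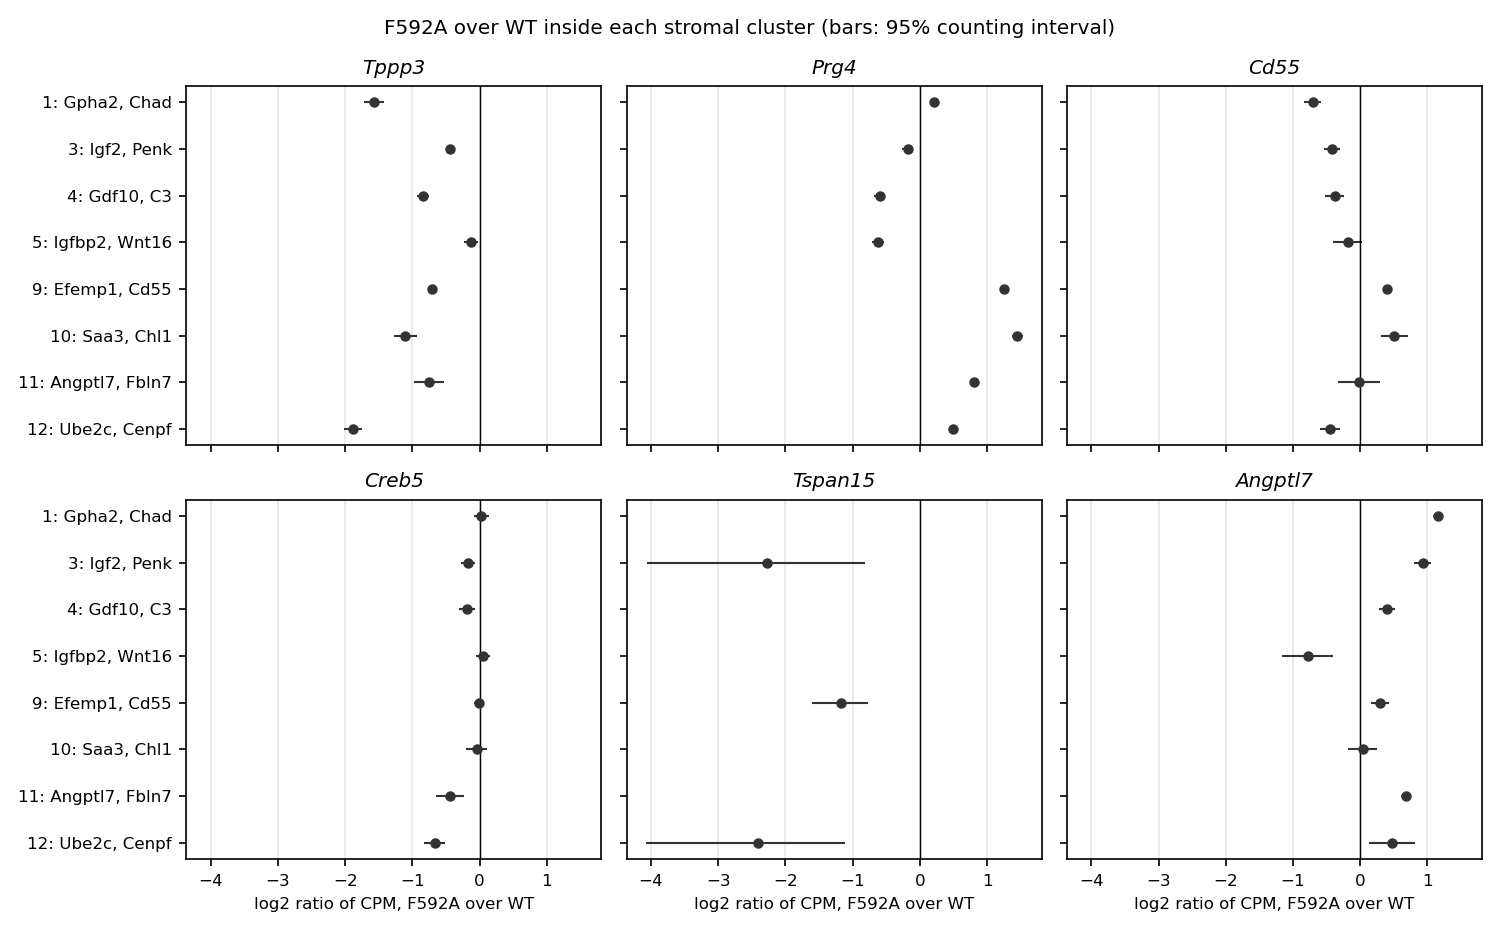
Log2 ratio of CPM, F592A over WT, inside each of the 8 stromal clusters, named by number and their first 2 leading genes. Points are ratios of summed UMIs, bars are 95% counting intervals, and a point is drawn where both libraries have UMIs and the sum is at least 20. All 8 Tppp3 points lie below 0, the Prg4 points run from -0.62 to 1.45, and the Creb5 points lie close to 0 except in the Angptl7 and cycling clusters.

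Angptl7 was higher in F592A stromal cells, at 71.1 CPM in WT against 140 CPM in F592A, a log2 ratio of 0.98 (interval 0.94 to 1.02). The share of cells with a UMI was 15.8% and 25.1%, against 1.53% and 1.16% of neutrophils. The cluster it leads, together with Fbln7, Kera and Prg4, had 450 CPM in WT and 722 CPM in F592A, with 44.5% and 66.4% of cells positive. The tenocyte-like cluster had 79.8 and 178 CPM, a log2 ratio of 1.16 and the highest of the 8. Those 2 clusters supplied 56.0% of the stromal Angptl7 UMIs in WT and 67.8% in F592A.

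The interval of the Angptl7 ratio was above 0 in 6 of 8 stromal clusters and below 0 in 1, the Igfbp2 and Wnt16 cluster, at 12.4 and 7.26 CPM. In fibrochondrocyte-like cells it was at 33.6 CPM in WT against 70.9 CPM in F592A, a log2 ratio of 1.08. In macrophages it was at 1.71 and 1.87 CPM and in mural cells at 5.23 and 4.84 CPM. In F592A neutrophils 127 of 128 Angptl7 UMIs were in 1 cell, so the value of 183 CPM there describes that cell.

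Cd55 was lower over the stromal class and higher in the cluster that carries most of it. Over the class it was at 127 CPM in WT against 94.8 CPM in F592A, a log2 ratio of -0.43 (interval -0.46 to -0.39), with 53.2% and 46.4% of cells positive. In the Efemp1 and Cd55 cluster, the source of 60.3% of stromal Cd55 UMIs in WT and 54.7% in F592A, it was at 523 CPM in WT against 692 CPM in F592A, a log2 ratio of 0.41 (interval 0.36 to 0.45). With each cluster given its WT share in both libraries the sign of the stromal ratio turned, to 0.14. The sign over the whole class therefore depended on how many cells of each cluster were in a library.

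Inside other clusters Cd55 was lower in the tenocyte-like cluster, at 49.6 and 30.4 CPM, in the cycling cluster, at 113 and 82.9 CPM, and where Igf2 or Gdf10 led. It was higher in the Saa3 and Chl1 cluster, at 42.8 and 61.0 CPM. Fibrochondrocyte-like cells had 73.4 CPM in WT and 78.0 CPM in F592A, with an interval of the log2 ratio that included 0. In lymphatic endothelial cells, at 58.4 and 54.6 CPM, and in blood endothelial cells, at 30.1 and 29.3 CPM, the intervals also included 0.

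Creb5 was at 115 CPM in WT stromal cells and 88.3 CPM in F592A stromal cells, a log2 ratio of -0.39 (interval -0.42 to -0.35), with 66.6% and 61.3% of cells positive. Inside the clusters the difference was small. In the Efemp1 and Cd55 cluster, where it was highest, it was at 294 and 292 CPM, with an interval of -0.08 to 0.06. It was lower in the cycling cluster, at 121 and 76.3 CPM, and in the Angptl7 and Fbln7 cluster, at 72.6 and 53.5 CPM. Its log2 ratio in the other 6 clusters ran from -0.19 to 0.05. With WT cluster shares in both libraries the stromal ratio was -0.09.

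Outside the stromal class Creb5 was at 50.9 CPM in WT against 51.3 CPM in F592A in macrophages, with 33.2% and 36.8% of cells positive, against 5.73% and 5.81% of neutrophils. Mural cells had 57.9 and 42.3 CPM, a log2 ratio of -0.45. Fibrochondrocyte-like cells had 65.7 and 55.6 CPM and endothelial cells 13.9 and 14.0 CPM.

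Tspan15 was mainly a gene of vessel cells in this tissue. It was at 71.2 CPM in WT against 54.4 CPM in F592A in mural cells, with 39.6% and 37.5% of cells positive, and at 60.8 and 52.3 CPM in endothelial cells, with 38.6% and 40.6% positive. The mural class held 20 WT and 96 F592A cells of a cluster led by Myh11, which had 3 Tspan15 UMIs in each library. Inside the main mural cluster, led by Rgs5, Tspan15 was at 72.8 and 64.3 CPM, with an interval of the log2 ratio of -0.38 to 0.02 and 39.0% and 42.7% of cells positive. Inside the cycling mural cluster the log2 ratio was 0.11, with an interval of -0.47 to 0.68. Lymphatic endothelial cells had 15.4 and 22.9 CPM, with an interval of -0.27 to 1.43. In stromal cells it had 420 UMIs in WT and 83 UMIs in F592A, or 3.38 and 0.83 CPM, in 1.74% and 1.01% of cells. In neutrophils 1 cell of each library had a UMI, 0.38% and 0.58%.

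Most of the stromal Tspan15 signal sat in the Efemp1 and Cd55 cluster, with 325 of 420 UMIs in WT and 59 of 83 in F592A. There it was at 17.8 and 7.85 CPM, a log2 ratio of -1.18 (interval -1.61 to -0.78), in 8.47% and 6.38% of cells. The cycling cluster held another 66 UMIs in WT and 5 in F592A. The stromal log2 ratio of -2.03 (interval -2.39 to -1.69) thus rests on few cells.

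Besides Tppp3, few of the 6 genes passed 1.5-fold in the other classes. In macrophages 4 of the 6 were measured. Tppp3 and Prg4 were at least 1.5-fold lower there, against 3.44% of all genes, with none higher against 2.08%. Macrophage Prg4 lay below the level of neutrophils, the background type, in both libraries, so its ratio is not read as a difference of macrophages. In endothelial cells 5 of the 6 were measured. Tppp3 and Prg4 were again lower, against 8.34%, with none higher against 2.53%. By the mean of the CPM of single cells, however, Prg4 was within 1.5-fold in endothelial cells. In mural cells 4 were measured, and Tppp3 alone was lower against 8.1%, with none higher against 4.07%. Inside the Efemp1 and Cd55 cluster all 6 were measured, with Tppp3 and Tspan15 lower against 6.39% and Prg4 higher against 2.5%.

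The 6 genes did not vary as a single set. Over the 16 points given by 8 stromal clusters in 2 libraries, Pearson's r of log2(CPM + 1) was 0.90 for Cd55 and Tspan15, 0.88 for Tppp3 and Creb5, 0.83 for Cd55 and Creb5 and 0.77 for Tppp3 and Cd55. It was 0.51 for Prg4 and Angptl7, -0.16 for Tppp3 and Prg4 and -0.31 for Tppp3 and Angptl7. The points share 2 libraries and are no independent samples. The r of Tspan15 rests on few points. It had 325 WT and 59 F592A UMIs in the Efemp1 and Cd55 cluster, 66 in the WT cycling cluster and at most 19 in any other point. Tppp3, Cd55, Creb5 and Tspan15 were highest in the Efemp1 and Cd55 cluster of both libraries, and Prg4 and Angptl7 were highest in the Angptl7 and Fbln7 cluster of both. Over these 8 clusters, the label of sheath and lining genes thus covers genes with peaks in 2 different clusters. The place of the Prg4 peak may depend on the resolution. The Slurp1 and Sbsn cluster of the finer resolution had more Prg4, in WT and in F592A, than the Angptl7 and Fbln7 cluster had here. Of its 204 WT and 44 F592A cells, 115 and 29 were in the Efemp1 and Cd55 cluster. No cluster is named a sheath type here.

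**Figure D4:**
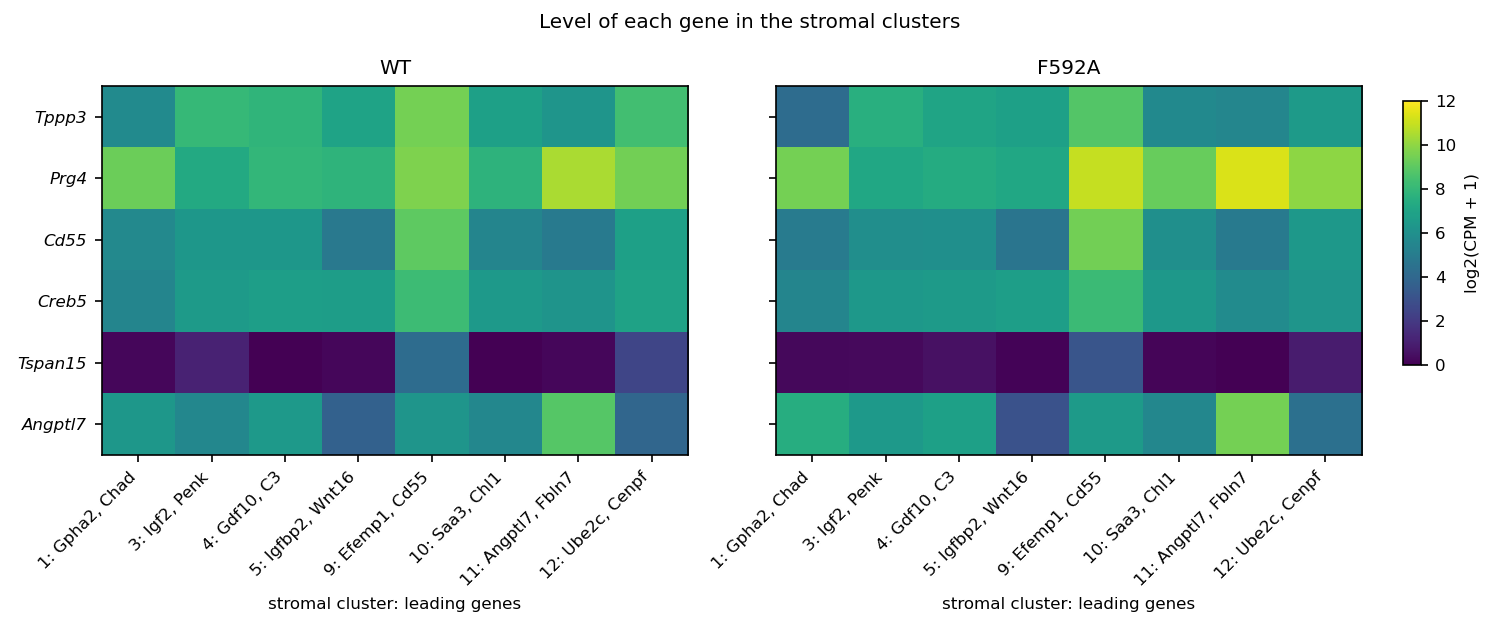
Level of the 6 genes (rows) in the 8 stromal clusters (columns, named by number and first 2 leading genes) of WT (left) and F592A (right), as log2(CPM + 1) in colour. Levels are compared along a row. Tppp3, Cd55, Creb5 and Tspan15 have their highest value in the Efemp1 and Cd55 column, and Prg4 and Angptl7 in the Angptl7 and Fbln7 column, in both libraries.

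Over all single stromal cells the same grouping was seen. In WT stromal cells r over cells was 0.48 for Tppp3 and Cd55, 0.43 for Tppp3 and Creb5, 0.31 for Prg4 and Angptl7 and -0.06 for Tppp3 and Prg4, and in F592A it was 0.37, 0.39, 0.37 and -0.08. Inside the Efemp1 and Cd55 cluster Prg4 was less apart from the others. There r of Prg4 was 0.22 with Cd55, 0.24 with Creb5 and 0.32 with Tspan15 in WT, and 0.20, 0.24 and 0.28 in F592A. For Tppp3 and Prg4 it was 0.11 and 0.09, and for Prg4 and Angptl7 0.48 and 0.42. These are correlations over cells of 1 library that differ in depth. Cells with UMIs of at least 4 of the 6 genes made up 22.6% of WT and 18.5% of F592A stromal cells, and 57.6% and 66.0% of the Efemp1 and Cd55 cluster. No neutrophil of 262 in WT or 172 in F592A had 4, which allows shares of up to 1.15% and 1.74% by 3 counts of the total, or 1.40% and 2.12% by the exact binomial interval, in cells of lower depth than the stromal cells.

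Genes with the pattern most like that of each member over the 16 points were picked by r among 6634 candidates. For Tppp3 these were Vapb, Cdc42ep2, Csnk1e, Itgb3 and Arhgap21, with r from 0.93 to 0.94. Of these, Itgb3, an integrin chain, was at 25.1 CPM in WT stromal cells and 11.5 CPM in F592A, and Vapb was at 73.3 and 64.4 CPM. For Cd55 they were Olfml2a, Lgi3 and Ptprj, and for Creb5 Wnt10b, Pde8a and Manea. For Tspan15, on the few clusters that held it, they were Ackr2, Ptgs1 and Olfml2a. For Prg4 they were Osbpl9, S100a4 and Bmp2, and for Angptl7 Ncoa3, Cpq and Txnip, with lower r, from 0.85 to 0.91.

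Genes of related function were read from 8 lists, in stromal cells, where the shares over all genes were 5.47% lower and 3.41% higher. Among 13 measured genes of other lining and sheath genes, 1 was at least 1.5-fold lower and 1 higher, while Has1, a hyaluronan synthase, was at 261 CPM in WT against 284 CPM in F592A. Among 15 measured genes of hyaluronan synthesis, binding and breakdown, 3 were lower and none was higher. Cd44, the main hyaluronan receptor, was at 448 and 251 CPM, and Hmmr, a hyaluronan receptor that is also a mitotic gene, at 20.1 and 9.78 CPM. The synthases Has1 and Has2 lay within 1.5-fold. Inside the Efemp1 and Cd55 cluster none of 11 measured genes of this list was lower and 1 was higher, against 6.39% and 2.5% of all genes.

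None of the 7 measured genes around the TspanC8 proteins and ADAM10 passed 1.5-fold, and Adam10 itself was at 45.3 and 38.6 CPM. None of the 11 CREB and ATF genes passed it either, and Creb1 was at 27.0 and 25.1 CPM.

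Of 12 measured genes of tubulin binding 2 were lower and none higher, beside 5.47% lower and 3.41% higher of all genes. Stmn1, which takes tubulin out of microtubules and is high in dividing cells, was at 107 and 43.4 CPM, and the Tppp3 relative Tppp was at 0.81 and 0.34 CPM. Of 5 measured angiopoietin-like genes other than Angptl7, 1 was lower and none was higher, and Angptl1 was at 228 and 275 CPM. None of 12 measured genes of the EGF and TGF-beta inputs to lubricin passed 1.5-fold. Of 13 tendon progenitor genes 1 was lower and 2 were higher. The higher genes, both at low levels, were Gli1, a transcription factor of the hedgehog pathway, at 1.26 and 2.78 CPM, and Nes, an intermediate filament gene, at 0.75 and 1.13 CPM. The lower gene was Dlk1, an inhibitor of differentiation, at 60.7 and 33.3 CPM over stromal cells and at 210.0 and 41.7 CPM inside the Efemp1 and Cd55 cluster.

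Other genes moved beside these values. The summed level of 7 cell cycle markers in stromal cells was 315 CPM in WT and 134 CPM in F592A, and without the cycling cluster the log2 ratio of Tppp3 was -0.97. The 8 macrophage markers summed to 196 and 85.9 CPM in stromal cells, the 7 mural markers to 83.9 and 69.0 CPM and the 4 haemoglobin genes to 102 and 31.9 CPM, with none of these markers at 0. For comparison, the macrophage markers summed to 29628 and 22852 CPM in macrophages and the mural markers to 10115 and 10789 CPM in mural cells. The part of RNA from such cells in the stromal values was not tested.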

How the data were processed

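Droplet libraries of 2 samples, 1 per genotype, were analysed from the whole UMI counts the authors deposited. Cell Ranger is named as version 6.0.1 per the file headers and as 2.1.1, with Seurat and the mm10 build, per the submitters' processing notes, and the sources do not settle which of them made the counts. Barcodes were kept from 500 genes and 1000 UMIs upward with a mitochondrial share of 15% or less, and doublets called with Scrublet (342 WT, 220 F592A) were left out. With scanpy 1.11.5, cells were scaled to a fixed total and log-transformed, and 2000 variable genes without the 6 members, 30 principal components, 15 neighbours and Leiden resolution 0.8 gave clusters of both libraries together, without integration. Marker lists gave each cluster its class, with cutoffs set after the data were seen (stromal: Col1a1 above 10000 CPM and Ptprc below 20 CPM), and clusters of mixed markers stayed unnamed. UMIs were summed over the cells of a class in each library and scaled to CPM with exact Poisson intervals, shares with exact binomial intervals and log2 ratios with exact conditional binomial intervals, all at 95% and for counting error only. The code was tested on simulated counts. With 1 library per genotype there are no replicates, so no p-value was computed.

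The members and the gene lists were chosen with earlier results of these data known. The genes named are the 6 members, Cd55b, up to 4 genes per list with at least 20 CPM and at least 1.5-fold apart, the 3 to 5 genes most like each member, and genes named in the text as chosen later. List genes given as context (Has1, Has2, Adam10, Creb1, Tppp, Angptl1, Gli1, Nes) were named after their values were seen. Alternatives covered scaling (TMM of edgeR 4.0.16 and median of ratios), doublets, stricter cells, a per-cell marker gate, resolution 1.2, cluster weights, thinning and clusters left out. A further run kept only cells with Y-linked UMIs and no Xist. The result of 1 further gene list is not reported here.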

Additional observations from a re-analysis of the deposited data

How the results depend on the processing

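The log2 ratio of Tppp3 in stromal cells stayed below 0 under every alternative run, from -1.08 to -0.51. It was -0.97 with TMM factors and -0.96 with median-of-ratios factors, which shift all stromal ratios by 0.08 and 0.10, and -0.999 at resolution 1.2. It was -0.82 with stromal clusters weighted equally, -0.74 with WT cluster shares, -0.86 after thinning to 2000 UMIs, -0.97 without the cycling cluster and -1.02 with fibrochondrocyte-like cells counted as stromal. A per-cell marker gate, which kept 943 WT and 1394 F592A cells, gave -0.51. Of these cells 79.0% in WT and 83.1% in F592A were of the stromal class, so the gate describes a different set of cells. Leaving out the Efemp1 and Cd55 cluster, an alternative chosen after seeing the data, gave -0.82. The cause of these shifts was not tested. The ratio of shares of cells with a Tppp3 UMI was 0.751, and was 0.599 after thinning, 0.664 for at least 2 UMIs and 0.829 in the gate. Cd55 changed sign with equal weights (0.14) and WT shares (0.14). In the gate, Tspan15, with 5 and 9 UMIs, changed sign (log2 ratio 0.045, share ratio 1.35), as did the share ratio of Creb5 (1.04). Prg4 ranged from 0.24 to 0.71, Angptl7 from 0.65 to 1.08 and Creb5 from -0.40 to -0.09. Of all genes, 743 were lower and 464 higher at 1.5-fold, 1282 and 977 with a minimum of 20 UMIs, and 225 and 120 at 2-fold. Lower genes were 61.6% of those past 1.5-fold, but 49.2% with TMM and 47.7% with median-of-ratios factors. Leaving out stromal clusters over 3 times apart in share was not run, as there was none at resolution 0.8. Cells with Xist and no Y-linked UMIs were too few (2 and 3 stromal cells) for a run of their own. The 4750 WT and 3546 F592A stromal cells with Y-linked UMIs and no Xist gave the Tppp3 log2 ratio of -1.08. Depth limits what low counts can show, as for Tspan15, with 420 and 83 stromal UMIs. No paired analysis was possible because each genotype has 1 library.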
